A study of Zea mays with 6 samples.

Results

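The genes described here are the maize loci that the deposited table names H4C7 (histone H4), H3C2 (histone H3), PCNA (the sliding clamp of DNA replication) and CDC2 (a cyclin-dependent kinase). They were picked out of the table by these names, and the names were chosen with earlier results of these data known. The names belong to 22 loci of 36781 in the table, namely 12 for H4C7, 8 for H3C2 and 1 each for PCNA and CDC2. Messenger RNA was profiled by sequencing in 6 endosperm libraries taken at 12 days after pollination, 3 of wild type (WT) and 3 of the mutant smk8-ref. The labels give only these 2 genotypes, with nothing on the inbred background, the affected gene or the kernels behind a library. The comparison asks how the endosperm transcriptome of the mutant differs from that of WT.

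Histones H3 and H4 form the core around which DNA is wrapped, and dividing or endoreduplicating cells make most of their histone messenger RNA while DNA is being copied. PCNA rings the DNA and holds the polymerases on it. CDC2 kinases drive the cell cycle together with cyclins. Maize endosperm first divides and then passes into endoreduplication, in which nuclei copy their DNA without dividing while starch and storage proteins build up.

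Values are FPKM (sequenced fragments divided by transcript length and by library total), summed over the transcripts of a locus. FPKM is scaled by transcript length, which allows levels of genes to be set side by side as far as the transcript models are complete and reads could be assigned to 1 copy. Where 3 values are given for a genotype, they stand in the order of replicates 1 to 3. Read totals are not in the table. The FPKM of a library summed to between 287260 and 321002, and between 14350 and 15988 loci reached 1 FPKM. The first principal component of log2(FPKM + 1) held 44.4% of the variance and separated the genotypes. The WT library closest to the mutant on it was replicate 3 (-19.8, against -44.6 and -33.9 for WT replicates 1 and 2). On the second component WT replicate 3 was again apart, at -45.4. Of the 4 named endosperm markers, PPDK2, a pyruvate phosphate dikinase of starchy endosperm, had means of 2648 ± 343 (WT) and 1795 ± 285 FPKM (smk8-ref; SD, n = 3), with groups apart (limma, adjusted p = 0.14). The Polycomb gene FIE1 stood at 27.0 ± 11.2 and 23.5 ± 6.62 FPKM (limma, adjusted p = 0.80). Of the genes of the embryo-surrounding region, ESR3 fell from 3.71 ± 0.840 to 0.966 ± 0.730 FPKM (limma, adjusted p = 0.043), and ESR1 stood at 1.71 ± 0.202 and 2.81 ± 3.43 FPKM (limma, adjusted p = 0.90). The summed level of the 4, nearly all of it PPDK2, was 2811, 2948 and 2281 FPKM in WT and 1906, 1504 and 2056 FPKM in smk8-ref. Zein genes, BETL1, MEG1 and the starch genes on the marker list were not analysed by name here. The 4 named embryo and meristem markers (KN-1, OBAP1A, OBAP2A and OBAP2B) were all above 0. Their summed level was 20.7, 26.2 and 68.0 FPKM in WT and 89.1, 59.1 and 77.6 FPKM in smk8-ref, and the value of WT replicate 3 falls inside the smk8-ref range. All 4 had higher means in smk8-ref and 0 passed the test (limma, adjusted). At an unadjusted p under 0.05 in limma, 2 were higher, against 15.1% of all tested loci. The part of either marker list in the results below was not tested.

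Histone H4 messenger RNA was lower in smk8-ref. The 12 H4C7 loci together stood at 1457, 997 and 1900 FPKM in WT and at 564, 646 and 808 FPKM in smk8-ref. Every smk8-ref library lay below every WT library, and WT replicate 2 was the WT library nearest to the mutant. The means were 1451 ± 452 FPKM in WT and 673 ± 124 FPKM in smk8-ref (SD, n = 3 each), a ratio of 2.16 and a log2 difference of -1.07. A sum over chosen loci is given without a p-value. In bulk tissue, fewer cells that make histone messenger RNA and less of it per cell cannot be told apart.

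The summed H3C2 level was also lower, by a smaller ratio. The 8 H3C2 loci together stood at 135, 146 and 226 FPKM in WT and at 101, 104 and 122 FPKM in smk8-ref. The groups did not overlap, but smk8-ref replicate 3 came close to WT replicate 1. Much of the difference lay at 1 locus, Zm00001d045268, with means of 72.0 FPKM in WT and 27.0 FPKM in smk8-ref. Without that locus the groups of the sum overlapped. Of the 7 tested H3C2 loci, 4 had overlapping groups and 2 had log2 differences above 0. The means were 169 ± 49.6 and 109 ± 11.3 FPKM (SD, n = 3 each), a ratio of 1.55 and a log2 difference of -0.59. Without WT replicate 3 the log2 difference was -0.36 for H3C2 and -0.86 for H4C7. H4C7 was the more abundant name in every library, at between 5.56 and 10.8 times the H3C2 level. Other H3 and H4 genes of maize may stand in the table without a name, so this ratio describes the named loci.

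PCNA resembled the histone H4 sum in the size of its difference. It stood at 28.0, 29.8 and 39.3 FPKM in WT and at 11.4, 13.9 and 21.7 FPKM in smk8-ref. The groups did not overlap, and replicate 3 was the highest library of each genotype. The log2 difference was -1.03 ± 0.25 (SE; 95% interval -1.61 to -0.45) and missed the threshold of 0.05 (limma, adjusted p = 0.0512). It passed under some other settings, among them scaling by the median ratio between libraries (log2 difference -1.18, limma adjusted p = 0.0319) and without smk8-ref replicate 3 (-1.28, limma adjusted p = 0.0497).

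CDC2 showed no difference of that size. It stood at 10.2, 11.9 and 15.4 FPKM in WT and at 11.7, 11.2 and 13.0 FPKM in smk8-ref, and all 3 smk8-ref libraries lay within the WT range. The log2 difference was -0.04 ± 0.17 (SE; 95% interval -0.44 to 0.36; limma, adjusted p = 0.90). The interval does not reach the value seen for PCNA, but still allows a change of moderate size in either direction. The sign was not stable: the difference was 0.11 without WT replicate 3.

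**Figure D1:**
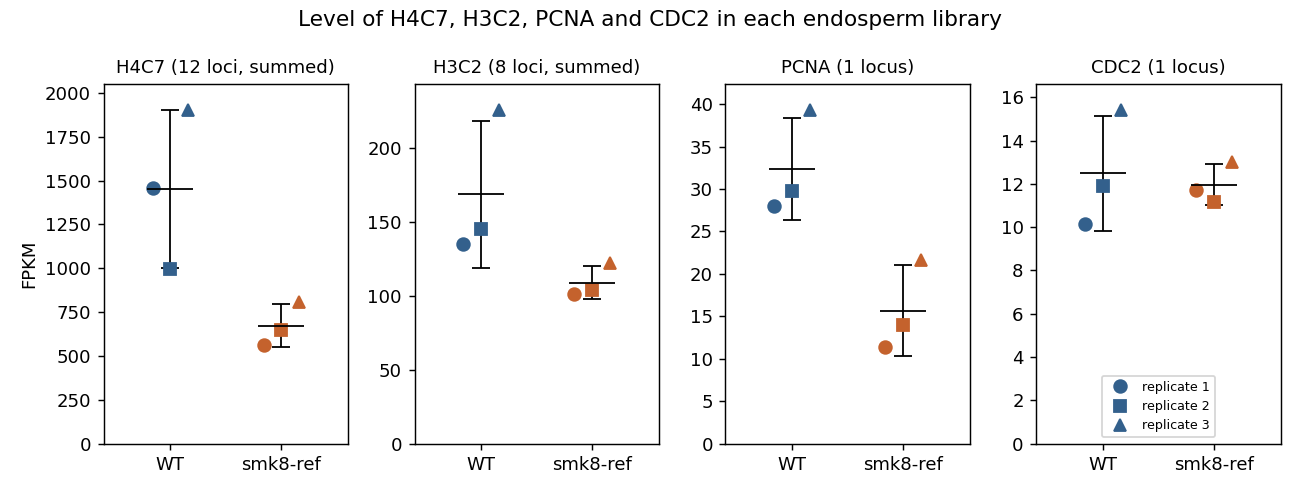
FPKM of the H4C7 sum, the H3C2 sum, PCNA and CDC2 (vertical axes, starting at 0) in the WT and smk8-ref libraries; markers are the 3 libraries of a genotype, and bars are the mean and SD. The groups are apart for H4C7, H3C2 and PCNA, and overlap for CDC2.

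Ratios between these genes were also compared within each library. The ratio of PCNA to CDC2 level was 2.75, 2.51 and 2.55 in WT and 0.972, 1.25 and 1.67 in smk8-ref, without overlap. The ratio of the H4C7 sum to PCNA was 44.6 ± 9.86 in WT and 44.4 ± 6.32 in smk8-ref (SD, n = 3 each), with overlapping groups. The H4C7 to H3C2 ratio was 8.68 ± 1.98 in WT and 6.13 ± 0.538 in smk8-ref, without overlap. The H3C2 to PCNA ratio was 5.15 ± 0.518 in WT and 7.33 ± 1.64 in smk8-ref, with overlapping groups. In the two-sided exact permutation test the first gave p = 0.10, the second p = 1.0, the third p = 0.10 and the fourth p = 0.20, where 0.10 is the smallest p that 3 against 3 libraries can give, so that none of the 4 ratios could pass. These ratios were chosen after their values had been seen.

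Locus by locus, 21 of the 22 members passed the filter of at least 1 FPKM in at least 3 libraries. H3C2 at Zm00001d025381 did not, at 0 to 0.159 FPKM. Of the 19 histone loci tested, 8 fell, 0 rose and 11 did not pass, 6 of the falls being in H4C7 and 2 in H3C2 (limma, adjusted p under 0.05 over all 15858 tested loci). Falls made up 4.21% of all tested loci, rises 3.39% and both together 7.60%. In 12 of the 19 histone loci all smk8-ref libraries lay below all WT libraries, against 15.9% of all tested loci; in 0 of them was the reverse seen, against 18.7%. The median log2 difference was -0.87 over the 19 loci and 0.05 over all tested loci. Histone copies of one class are close to identical in sequence and can share reads, so these loci are not independent of each other.

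The number of falls depended on single libraries. Without WT replicate 3, 4 histone loci fell and 1 rose, H3C2 at Zm00001d050697 (limma, adjusted p = 0.049). Over all 15858 tested loci, 540 fell and 885 rose in that fit. Without WT replicate 2 the falls numbered 7, against 356 over all tested loci. Without smk8-ref replicate 3, where PCNA was also called, there were 2 members called lower in all, against 127 tested loci. Without WT replicate 1, smk8-ref replicate 1 or smk8-ref replicate 2 there were 0 in limma, against 17, 16 and 15 tested loci. At an unadjusted p under 0.05, 14 members were lower and 0 higher with all libraries, against 13.2% and 15.1% of all tested loci. In those last 3 fits 15, 13 and 13 members were lower at that p, against 10.5%, 9.84% and 10.9% of all tested loci. Scaling by the median ratio moved the median log2 difference of all tested loci from 0.05 to -0.07, and with it 12 members fell. Calls over all loci were then 308 higher and 784 lower, against 538 and 667 as deposited.

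**Figure D2:**
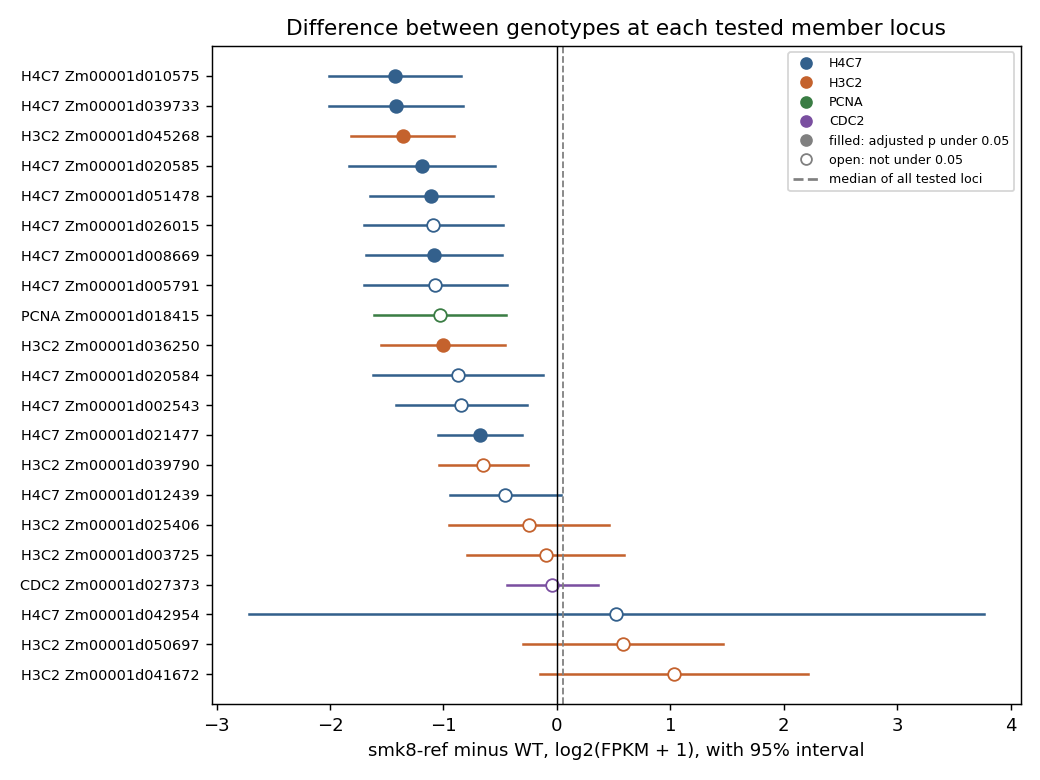
Difference smk8-ref minus WT in log2(FPKM + 1) (horizontal axis) for the 21 tested members, with the 95% interval of the limma fit; filled points passed an adjusted p of 0.05, and the dashed line is the median of all tested loci. Of the 21 points, 18 lie below 0, against 44.5% of all tested loci, and the 8 filled ones are all histone loci.

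Among H4C7 loci the largest fall was at Zm00001d010575 (chromosome 8, 120733570 to 120733881). It stood at 78.0, 55.8 and 112 FPKM in WT and at 25.8, 28.6 and 31.8 FPKM in smk8-ref. The 3 smk8-ref libraries lay close together and below the lowest WT library (log2 difference -1.43 ± 0.25 SE; limma, adjusted p = 0.027). H4C7 at Zm00001d039733 (chromosome 3, 13212197 to 13212828) stood at 166, 101 and 170 FPKM in WT and at 43.5, 49.1 and 67.2 FPKM in smk8-ref, also without overlap (log2 difference -1.42 ± 0.25 SE; limma, adjusted p = 0.028). H4C7 at Zm00001d020585 (chromosome 7, 123712201 to 123712512) stood at 115, 83.1 and 137 FPKM in WT and at 38.0, 41.3 and 68.4 FPKM in smk8-ref (log2 difference -1.19 ± 0.27 SE; limma, adjusted p = 0.047). These 3 are the largest of the 6 falls in this name.

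The neighbour of the last of these, H4C7 at Zm00001d020584, lies 8055 bases away on the same strand. It stood at 58.2, 47.2 and 102 FPKM in WT and at 28.7, 31.4 and 48.4 FPKM in smk8-ref. Here smk8-ref replicate 3 lay above WT replicate 2, and the locus did not pass (log2 difference -0.87 ± 0.32 SE; limma, adjusted p = 0.13). The difference between these neighbours was not tested.

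A pair of loci held 49.1% to 49.7% of the H4C7 sum in each library. H4C7 at Zm00001d005791 (chromosome 2, 188810174 to 188810485) was the most abundant, at 408, 266 and 526 FPKM in WT and 155, 180 and 218 FPKM in smk8-ref, and ranked 97 by mean level among all 36781 loci. Its groups did not overlap, and it missed the threshold (log2 difference -1.07 ± 0.27 SE; limma, adjusted p = 0.057). H4C7 at Zm00001d008669 (chromosome 8, 16558205 to 16558516), the second in level, stood at 310, 225 and 417 FPKM in WT and 123, 137 and 179 FPKM in smk8-ref. It fell by a like amount and was the called H4C7 locus nearest to the threshold (log2 difference -1.09 ± 0.25 SE; limma, adjusted p = 0.0489). H4C7 at Zm00001d026015 lay just outside it, at 37.2, 30.0 and 52.3 FPKM in WT and 12.9, 21.0 and 20.5 FPKM in smk8-ref (limma, adjusted p = 0.0508). Loci on either side of the threshold thus had log2 differences of the same size.

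The remaining H4C7 falls were at Zm00001d051478 (115 ± 29.5 FPKM in WT and 52.5 ± 9.74 in smk8-ref; limma, adjusted p = 0.038) and Zm00001d021477 (11.8 ± 1.65 and 7.0 ± 0.892 FPKM; limma, adjusted p = 0.048). The last is the least abundant H4C7 locus. H4C7 at Zm00001d002543 stood at 62.7 ± 22.1 and 33.4 ± 3.98 FPKM and at Zm00001d012439 at 63.8 ± 18.0 and 45.3 ± 4.40 FPKM, and neither passed (limma, adjusted p = 0.083 and 0.21).

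H4C7 at Zm00001d042954 (chromosome 3) was unlike the others. It stood at 37.7, 0.112 and 55.9 FPKM in WT and at 17.0, 17.5 and 20.9 FPKM in smk8-ref. The value in WT replicate 2 alone set the sign of its difference, which was 0.52 ± 1.37 (SE) with that library and -1.28 ± 0.20 without it (limma, adjusted p = 0.83 and 0.046). The other 11 H4C7 loci summed to 996 FPKM in WT replicate 2, and leaving this locus out changed the log2 difference of the sum from -1.07 to -1.09.

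**Figure D3:**
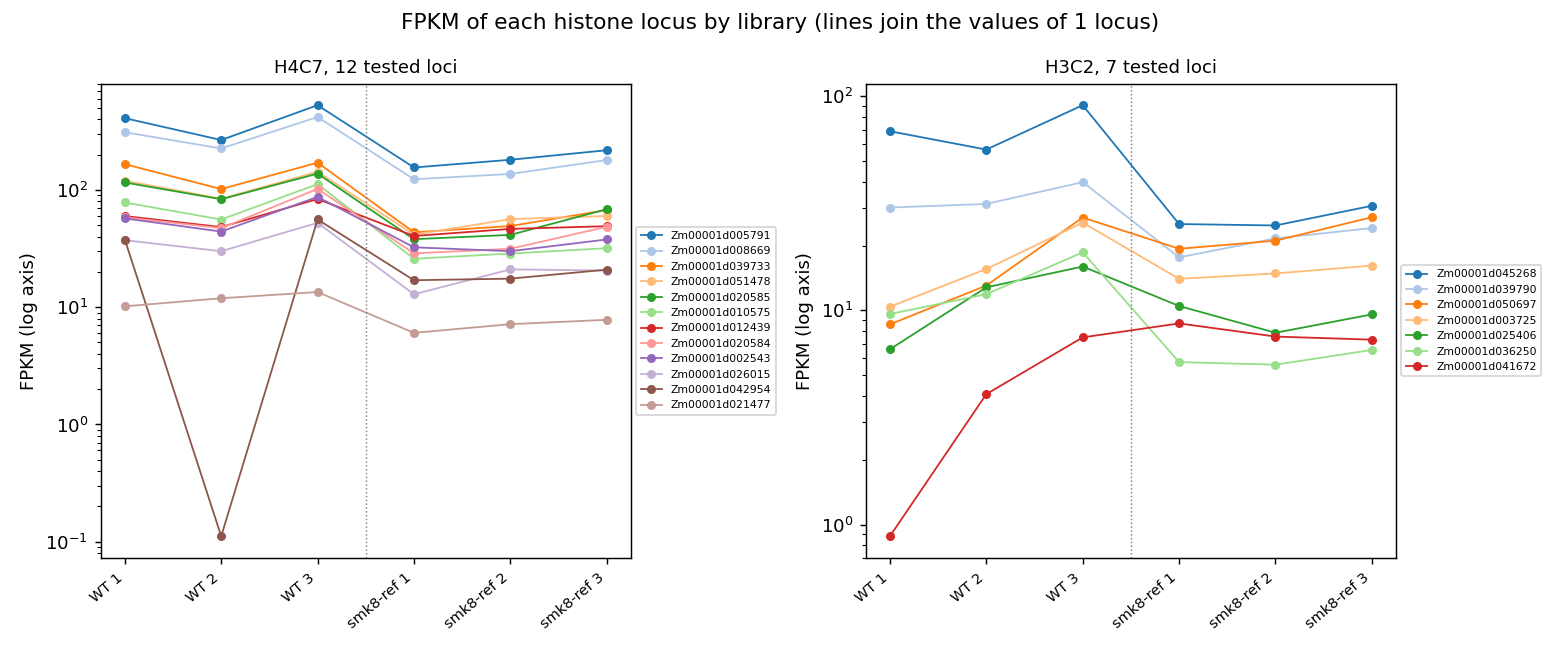
FPKM on a log axis for each tested H4C7 locus (left) and H3C2 locus (right) in the 6 libraries; each line joins the values of 1 locus and a dotted line parts the genotypes. WT replicate 3 is the highest WT library on every H4C7 line, lines cross in both panels, and Zm00001d042954 drops to 0.112 FPKM in WT replicate 2.

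Among H3C2 loci, Zm00001d045268 (chromosome 9, 17495380 to 17496111) had the largest fall and the highest WT level. It stood at 68.7, 56.4 and 90.9 FPKM in WT and at 25.3, 24.9 and 30.8 FPKM in smk8-ref (log2 difference -1.36 ± 0.19 SE; limma, adjusted p = 0.020). The lowest WT value was well above the highest smk8-ref value. H3C2 at Zm00001d036250 (chromosome 6, 79853753 to 79854163) stood at 9.62, 11.9 and 18.7 FPKM in WT and at 5.74, 5.58 and 6.54 FPKM in smk8-ref and also fell (log2 difference -1.0 ± 0.23 SE; limma, adjusted p = 0.048). H3C2 at Zm00001d039790 (chromosome 3, 14754274 to 14754684) was the first outside the threshold, at 30.2, 31.4 and 39.7 FPKM in WT and 17.7, 21.7 and 24.3 FPKM in smk8-ref (limma, adjusted p = 0.061). Its groups did not overlap.

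The other 4 tested H3C2 loci had overlapping groups and did not pass. Zm00001d050697 stood at 8.61, 13.1 and 27.2 FPKM in WT and at 19.4, 21.2 and 27.2 FPKM in smk8-ref, so that WT replicate 3 reached the smk8-ref level (log2 difference 0.58; limma, adjusted p = 0.35). Zm00001d041672 stood at 0.882, 4.06 and 7.48 FPKM in WT and at 8.70, 7.55 and 7.30 FPKM in smk8-ref (log2 difference 1.03; limma, adjusted p = 0.23). In WT the level of both spread over a wide range, with replicate 1 lowest and replicate 3 highest. Zm00001d025406 and Zm00001d003725 had log2 differences of -0.24 and -0.10 (limma, adjusted p = 0.63 and 0.85).

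The most abundant pair of H4C7 loci varied little in share between libraries. The pair Zm00001d005791 and Zm00001d008669 held 49.3%, 49.3% and 49.7% of the H4C7 sum in WT and 49.3%, 49.1% and 49.1% in smk8-ref. No H4C7 locus changed its mean share by more than 2.36 percentage points. Groups of shares were apart for 4 of the 12 loci. Levels, a different measure, were apart for 34.5% of all tested loci. Shares were lower in smk8-ref at Zm00001d039733 (10.2% ± 1.20 in WT and 7.88% ± 0.384 in smk8-ref, SD, n = 3) and Zm00001d010575. They were higher at Zm00001d012439 (means of 4.44% in WT and 6.80% in smk8-ref) and Zm00001d002543. The share of Zm00001d042954, whose groups overlapped, was 2.59%, 0.0112% and 2.94% in WT.

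In the H3 pool some loci differed by more percentage points between the genotypes. Zm00001d045268 held 50.9%, 38.8% and 40.3% of the H3C2 sum in WT and 25.0%, 24.0% and 25.3% in smk8-ref. Zm00001d050697 held 6.38%, 8.98% and 12.0% in WT and 19.1%, 20.4% and 22.3% in smk8-ref. Zm00001d041672 held 2.25% ± 1.41 in WT and 7.28% ± 1.29 in smk8-ref (SD, n = 3). Groups of shares were apart for 5 of the 8 H3C2 loci, 2 lower and 3 higher in smk8-ref. Shares of one sum are tied to each other. No figure over all loci was worked out for shares, so neither this count nor that for H4C7 has a background. Whether the H3 pool shifted more than the H4 pool was not tested. Shares also depend on how reads were divided among copies.

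**Figure D4:**
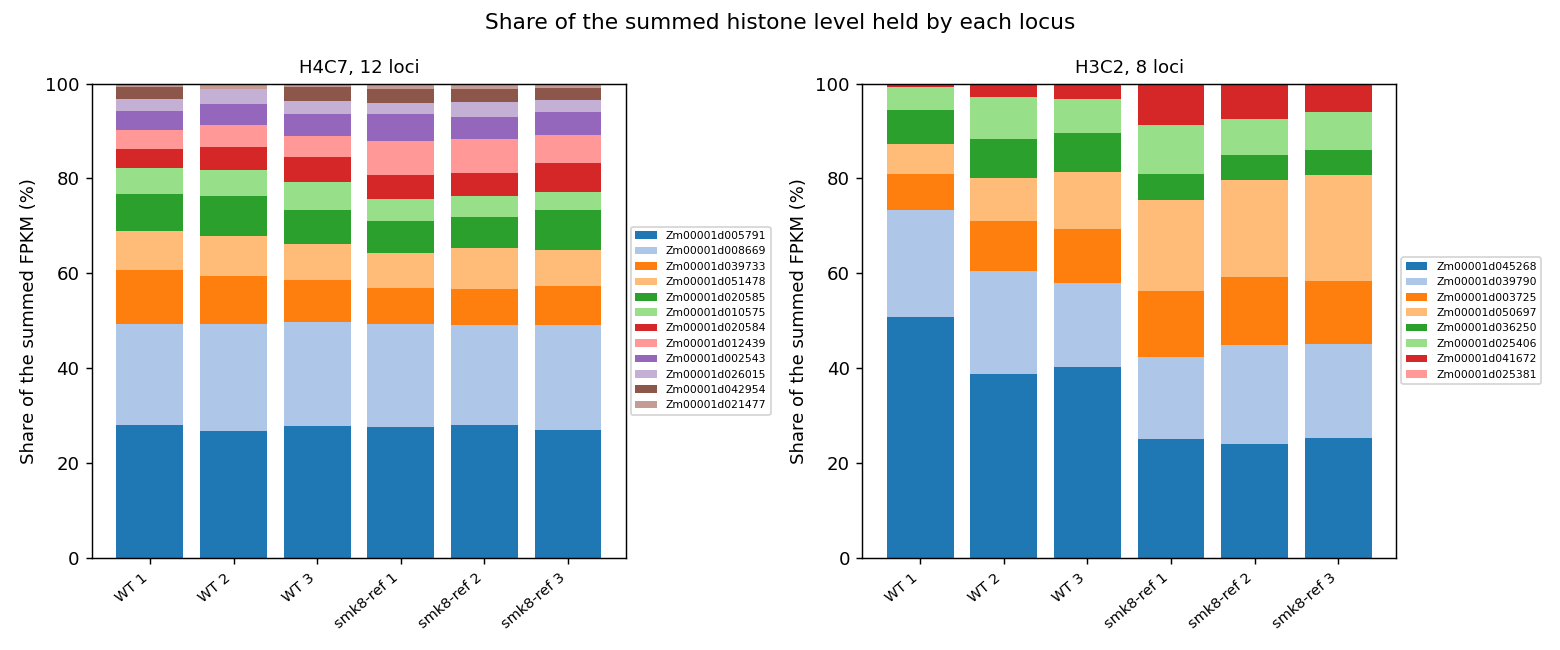
Share of the summed H4C7 level (left) and H3C2 level (right), in percent, held by each locus in each of the 6 libraries. The lowest 2 segments of H4C7 keep a height of 49.1% to 49.7%, while the lowest segment of H3C2, Zm00001d045268, is 38.8% to 50.9% in WT and 24.0% to 25.3% in smk8-ref.

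The histone loci also varied together across libraries of one genotype. WT replicate 3 was the highest WT library for 19 of the 20 histone loci and for both PCNA and CDC2, against 46.1% of all tested loci. WT replicate 2 was the lowest WT library for 11 of the 12 H4C7 loci, while WT replicate 1 was the lowest for 7 of the 8 H3C2 loci. In smk8-ref, replicate 3 was the highest library for 16 of the 20, against 37.6% of all tested loci. The median SD of log2 values among WT libraries was 0.45 for tested histone loci and 0.22 for all tested loci. Among smk8-ref libraries it was 0.19 and 0.18.

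The table models these genes in a simple way. Each of the 20 histone loci has 1 transcript, and the 12 H4C7 loci lie on 6 chromosomes, as do the 8 H3C2 loci on 6. Of the H4C7 loci, 10 span exactly 312 bases, and 4 of the H3C2 loci span 411 bases, the lengths of the coding sequences of these proteins alone, with no untranslated regions. Zm00001d039733 and Zm00001d051478, at 632 and 388 bases, are the H4C7 exceptions. FPKM divides by these lengths, so levels of loci whose models differ in this way are less sure than differences between libraries at one locus.

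PCNA (Zm00001d018415, chromosome 5, 220297125 to 220299214) has 2 transcripts in the table. Transcript 2 held between 94.9% and 97.2% of its level in the 6 libraries. It stood at 26.8, 28.6 and 37.3 FPKM in WT and 11.0, 13.5 and 21.1 FPKM in smk8-ref, so the difference of the locus is that of this transcript. CDC2 (Zm00001d027373, chromosome 1, 3960300 to 3964921) has 5. Transcript 4, its most abundant, stood at 6.12, 6.50 and 9.20 FPKM in WT and at 7.68, 7.95 and 9.80 FPKM in smk8-ref, with overlapping groups. Its share of the locus was 60.2%, 54.7% and 59.7% in WT and 65.5%, 71.2% and 75.3% in smk8-ref. Transcript 5 held between 22.3% and 33.8%, with overlapping groups, and the other 3 at most 10.7% each. With transcripts tested singly, both PCNA transcripts and CDC2 transcripts 4 and 5 passed the filter, and 0 of these 4 were called (limma, adjusted p from 0.11 to 0.81). The only member called in that fit was H3C2 at Zm00001d045268 (limma, adjusted p = 0.038).

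In the authors' deposited table, 8 H4C7, 2 H3C2 and 1 PCNA transcripts are marked down, and 1 H4C7 transcript is marked up. Over all transcripts of the authors' deposited table, 2.31% are marked down and 2.53% up. The one marked up in the authors' deposited table is that of Zm00001d042954, with a fold change of 5.70 and a p-value of 0.47, although its mean FPKM was 31.2 in WT and 18.4 in smk8-ref. The smallest q-value of a member in the authors' deposited table is 0.65, and the smallest of any transcript there is 0.40.

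Other named genes of DNA replication, chromatin and the cell cycle were few. The list matched 12 loci, all tested, of which 0 passed in either direction in limma, with a median log2 difference of 0.07. At an unadjusted p under 0.05 in limma, 2 were lower and 0 higher, against 13.2% and 15.1% of all tested loci. The count of 12 and the median include CAF1 and CAF2 (log2 differences 0.15 and 0.33), which are not known as chromatin genes. Without them the median is slightly negative. FEN1, the flap endonuclease that trims Okazaki fragments, stood at 15.1, 34.7 and 43.1 FPKM in WT and 26.1, 31.2 and 35.7 FPKM in smk8-ref, with all smk8-ref libraries inside the WT range (limma, adjusted p = 0.87). RBR3, a retinoblastoma-related gene, stood at 4.10 ± 1.19 and 6.20 ± 2.20 FPKM (limma, adjusted p = 0.32). RAD51B, a recombinase relative of DNA repair, stood at 4.41 ± 1.39 and 2.85 ± 0.463 FPKM without overlap (limma, adjusted p = 0.21). The DNA methyltransferase gene DMT105 did not pass either (limma, adjusted p = 0.37). The high mobility group gene HMGIY2 stood at 27.6, 24.6 and 15.6 FPKM in WT and 29.1, 29.5 and 31.2 FPKM in smk8-ref. Its groups were apart with smk8-ref higher, and it did not pass (log2 difference 0.43, limma adjusted p = 0.23).

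The 5 tubulin genes on this list included the most abundant of its genes. TUBA1, an alpha tubulin of microtubules, stood at 434, 498 and 440 FPKM in WT and at 289, 309 and 383 FPKM in smk8-ref, without overlap, and did not pass (log2 difference -0.49; limma, adjusted p = 0.10). TUBA3 stood at 341 ± 27.7 and 349 ± 21.1 FPKM, TUBA6 at 59.2 ± 7.75 and 44.8 ± 7.42 FPKM, TUBA5 at 29.4 ± 5.33 and 28.2 ± 5.55 FPKM and the gamma tubulin TUBG2 at 6.06 ± 2.01 and 8.08 ± 3.35 FPKM. None of these passed (limma, adjusted p from 0.18 to 0.88). The pattern for the list also took in CAF1 and CAF2, which in maize are known as splicing factors of the chloroplast and not as chromatin genes, and neither passed (limma, adjusted p = 0.59 and 0.35).

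The named genes outside this set whose levels ran closest to those of the members were sought among 168 tested loci with a name, by the root mean square difference of centred log2(FPKM + 1) over the 6 libraries. Nearest to the H4C7 sum were both loci named RPL39, a ribosomal protein (0.13 at Zm00001d018383 and 0.14 at Zm00001d045121), and PRO4, a profilin (0.14), against a median of 0.58 over the 168. Nearest to the H3C2 sum were RPL30 (0.11), ANT1 (0.13) and ANT2 (0.13), against a median of 0.40. Nearest to PCNA were the gene named atpB at Zm00001d038929 (0.16) and EFTS (0.22), against a median of 0.55. Nearest to CDC2 were GAPC2 (0.080), ROA2 (0.11) and SMH4 (0.11), against a median of 0.36. The distance describes these 6 libraries and carries no test.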

How the data were processed

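Per the labels' protocols, RNA was extracted with Trizol and made into Illumina libraries. The submitters' processing notes name HISAT and StringTie. Tool versions, settings and genome build were not given in the sources used here. In the table, unplaced contigs have the prefix B73V4; coordinates are the table's own. The authors deposited FPKM per transcript, with a fold change (ratio), a log2 fold change, p-values and q-values of their own comparison, whose model is not stated.

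FPKM was summed per locus. Loci with at least 1 FPKM in at least 3 libraries (15858) were compared on log2(FPKM + 1), with a pseudocount of 1 that understates changes of low genes, in limma 3.58.1 under R 4.3.3 (variance trend, two-sided, Benjamini-Hochberg over all tested loci, threshold 0.05). P-values called adjusted come from this fit, or from the same procedure under an alternative setting where the sentence names one. The procedure was tested on simulated data.

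Depth is unknown. Low values did not fall on whole reads: at most 0.429% of low values shared 1 ratio between libraries, so no count test was run. The labels call the libraries biological repeats without naming plants or ears, so p-values cover the spread between libraries, which may be technical. The main fit did not pair libraries by replicate number. Over all tested loci, deviations of same-numbered libraries correlated at 0.0069, -0.0085 and 0.083, and those of other pairs at -0.11 to 0.099. With 3 libraries per genotype, these values cannot exclude pairing. With the replicate number as a block, the SE of PCNA was 0.14, against 0.25 in the main fit.

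The members and lists were chosen with earlier results of these data known. Full values are given for PCNA, CDC2, the summed histones, the 3 largest called and 3 most abundant loci of each histone name and those next to the threshold; further loci were added so that every member is accounted for. On the list of other genes, every called gene and the 5 most abundant were to be named; the others were added. Alternatives were other pseudocounts (0.1 and 5), filters and scalings, transcripts, a replicate block and leaving out each library. One gene that the rule on likeness would name is not reported here.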

Additional observations from a re-analysis of the deposited data

How the results depend on the processing

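The number of loci called was 1205 of 15858, and that of members called lower was 8. These were 1019 and 4 with a pseudocount of 0.1, 388 and 3 with no filter, 779 and 5 with quantile normalization, and 490 and 1 among transcripts. With the replicate number as a block, they were 36 and 0 in limma, with 14 members and 12.3% of all tested loci lower at an unadjusted p under 0.05. The counts of members take falls only, and those of all loci both directions. Falls over all loci were 667 in the main fit, 593 with a pseudocount of 0.1 and 217 of 36781 with no filter. They were 430 with quantile normalization, 274 of 23076 among transcripts and 15 with the block. With 1 library left out the calls ranged from 28 to 1425 and the members from 0 to 7. Fewer libraries enter those fits, and more features the unfiltered one. The calls numbered 1425 without WT replicate 3 and 28 without smk8-ref replicate 2. What set these counts was not tested. A pseudocount of 5, a filter at 5 FPKM and median-ratio scaling gave 9, 12 and 12 members. Over all tested loci, the falls in those fits were 701 of 15858, 788 of 8180 and 784 of 15679. PCNA passed with a pseudocount of 5 (-0.87), a filter at 5 FPKM (-1.03) and median-ratio scaling (-1.18); it ranged from -1.28 to -0.84 when single libraries were left out, passing only without smk8-ref replicate 3. CDC2 reversed when its most abundant transcript stood for it (0.21), and the locus ranged from -0.17 to 0.11 with 1 library left out. The H4C7 sum stayed between -1.32 and -0.86 and the H3C2 sum between -0.73 and -0.36 with 1 library left out, and at -0.79 and -0.46 with quantile normalization. The 8 called histone loci kept their call in 46 of 112 alternative values, lost it in 66 and reversed in 0; non-overlapping groups fix that direction when a library is left out. H4C7 at Zm00001d042954 reversed with a pseudocount of 5 (-0.019) and ranged from -1.28 to 1.56. H3C2 at Zm00001d003725 and Zm00001d025406 ranged from -0.40 to 0.22 and from -0.58 to 0.0021. On the other list no gene passed under any alternative; TUBA3 (-0.12) and FEN1 (-0.036) reversed with median-ratio scaling and TUBA5 (0.092) with quantile normalization, and with 1 library left out they ranged from -0.015 to 0.099, -0.32 to 0.41 and -0.20 to 0.083.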

Other observations

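Other named genes of chromatin and division lie outside the list and were picked after their names were seen. MNB1B, a high mobility group box protein of chromatin, stood at 218, 169 and 253 FPKM in WT and at 191, 180 and 177 FPKM in smk8-ref, with overlapping groups (limma, adjusted p = 0.47). PARP1, a poly(ADP-ribose) polymerase of DNA repair, stood at 18.3 ± 2.17 and 17.8 ± 1.36 FPKM (SD, n = 3; limma, adjusted p = 0.90). EZ1, a Polycomb histone methyltransferase gene, stood at 8.21 ± 3.89 and 8.99 ± 0.666 FPKM (limma, adjusted p = 0.70). SMH1, of the single myb histone family, which binds telomere repeats, stood at 15.7 ± 0.741 FPKM in WT and 11.8 ± 1.52 FPKM in smk8-ref without overlap and did not pass (limma, adjusted p = 0.12). SMH2, SMH3, SMH4 and SMH5 had overlapping groups. MAD2, a gene of the spindle checkpoint, was listed at 0 in WT replicate 1 and in smk8-ref replicate 2, and at between 4.20 and 7.87 FPKM in the other 4 libraries.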
